A study of Drosophila melanogaster with 12 samples.

Results

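The comparison described here sets eye discs of 3 mutant Drosophila melanogaster genotypes, pooled, against discs of the wild-type strain Canton S. It uses all 12 arrays of the series: 9 mutant arrays, with 3 each of rbf120a, wtsX1Lats and rbf120a wtsX1Lats, and 3 Canton S arrays. The members were taken from the genotype labels alone, so no measured value chose them. Each array holds RNA of discs from larvae in their last instar hybridized to an Affymetrix chip, and 11982 genes were measured, each through 1 probe set, the brightest on average. The mutant discs were mosaics in which mutant cells made up most of the tissue, according to the series' design text, so each mutant value also holds some RNA of cells without the full mutant genotype. The labels call the 3 arrays of a group biological replicates without saying how many animals went into each, and they give no strain for the mutant stocks. What is common to the 3 mutant groups is therefore both what the alleles share and what separates the stocks from Canton S, and the design cannot tell these apart.

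Rbf is a retinoblastoma family protein, which binds E2F transcription factors and keeps genes of DNA replication and the cell cycle silent in cells that should not divide. Warts, also called Lats, is a kinase of the Hippo pathway that holds back the growth co-activator Yorkie. In the late larval eye disc a furrow sweeps across the tissue, ahead of which cells divide and behind which photoreceptors and cone cells form. Fly stocks kept apart for many generations also differ by sequence variants, and stocks built for making mosaics carry marked transgenes.

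The alleles do not show in the pooled levels of their own genes. Rbf (X chromosome) lay between 8.72 and 10.10 on the log2 signal scale in the mutant arrays (median 9.22), against 9.53, 9.31 and 9.51 in Canton S replicates 1, 2 and 3. wts (arm 3R) lay between 9.08 and 10.27 in the mutant arrays (median 9.76), against 9.86, 10.05 and 9.95. Both sets overlap, and neither pooled change passed the test (adjusted p = 0.778 for Rbf and 0.726 for wts, limma). Each pool holds a group without the allele in question. The labels also do not place the alleles relative to the probes, so these values check nothing. All 12 eye disc markers were measured, and their mean level was 9.34 to 10.14 in mutant arrays and 10.18 to 10.25 in Canton S. The 3' minus 5' log2 difference of the actin control was 0.32 to 1.70 in mutant arrays and 0.45 to 0.70 in Canton S, and the value of 1.70 was that of wtsX1Lats replicate 3, whose removal is described wherever it moves a count by more than 1.5 times.

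The pooled change is the mean of the 3 mutant group means minus the Canton S mean, on the log2 scale, from a limma fit of 4 group means over the 12 arrays, and a gene was called when its adjusted p was under 0.05. Of 11982 genes, 807 were called (6.74%), with 369 higher in mutant discs (3.08%) and 438 lower (3.66%). The 9 mutant arrays all lay above the 3 Canton S arrays in 272 of the genes called higher (2.27% of all genes) and all below them in 292 of the genes called lower (2.44%). With no test applied, such a separation was found upward in 454 genes (3.79%) and downward in 408 (3.41%). The other 243 called genes overlapped in at least 1 array. A size of at least 1, a doubling of signal or more, was reached by 212 called genes (1.77%), 86 higher (0.718%) and 126 lower (1.05%), and 176 of these 212 had no overlap. The median change over all genes was 0.01. The counts move with single arrays: 392 genes were called without Canton S replicate 1 (162 higher and 230 lower), 197 were called higher without Canton S replicate 3, and 1281 were called without wtsX1Lats replicate 3 (609 higher and 672 lower). The fit takes 1 spread per gene for all groups, although the median SD within a group was 0.0954 for rbf120a, 0.167 for wtsX1Lats, 0.0835 for the double mutant and 0.125 for Canton S, so a call can be less certain than its adjusted p. Of the 212 large changes, 161 were called after every removal of 1 array.

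**Figure D1:**
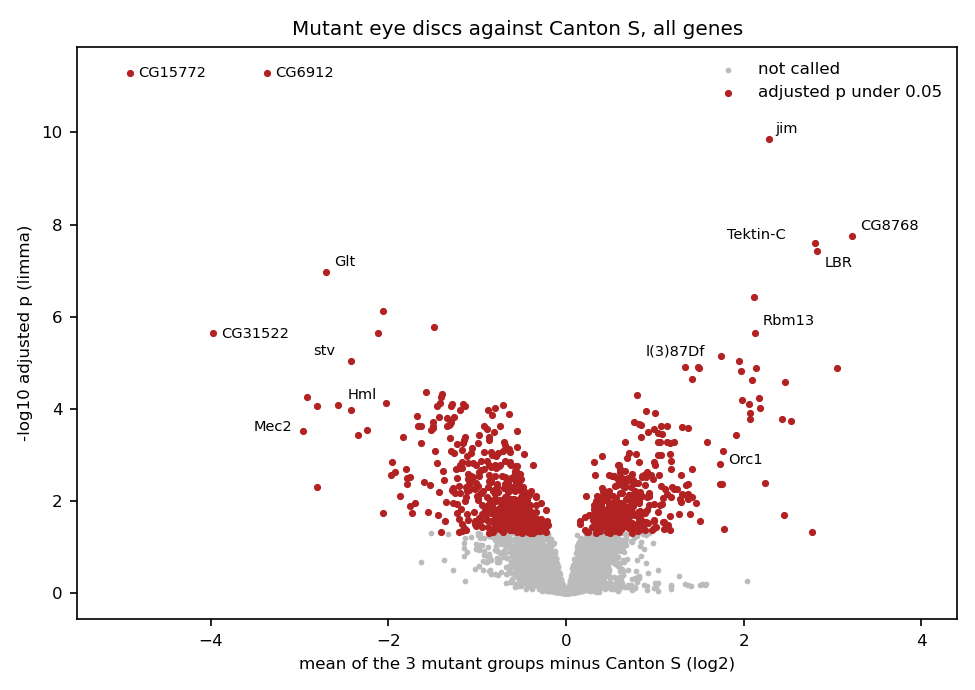
Each point is a gene, placed by the mean of the 3 mutant groups minus Canton S (log2, horizontal) and by -log10 of limma's adjusted p (vertical); red points are the 807 called genes. CG15772 (-4.90) and CG6912 (-3.37) lie highest on the left, and jim (2.28), CG8768 (3.21), Tektin-C (2.80) and LBR (2.82) are the highest of the points with a change above 2 on the right.

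The rises named here are the largest among genes whose mutant and Canton S arrays do not overlap; Tektin-C (2.80), tut (2.19) and Hsc70-2 (2.14), which overlap because rbf120a lay near Canton S, are not among them. CG8768 (arm 2R) lay between 8.57 and 9.15 in the mutant arrays (median 8.75), against 5.41, 5.54 and 5.65 in Canton S, a change of 3.21 ± 0.12 (SE; adjusted p = 1.79e-08). LBR, the lamin B receptor of the inner nuclear membrane, lay between 10.49 and 10.86 (median 10.71), against 7.84, 7.61 and 8.19 (2.82 ± 0.12, adjusted p = 3.68e-08). The zinc finger gene jim lay between 13.04 and 13.41 (median 13.31), against 11.01, 10.97 and 11.03 (2.28 ± 0.06, adjusted p = 1.42e-10), although its other probe sets changed by only 0.21 and 0.08. At these 3 probe sets the lowest mutant array was at least 2 log2 units above the highest Canton S array, whichever mutant genotype it came from. Rbm13, a ribosome biogenesis factor, lay between 9.29 and 10.06 (median 9.85), against 7.80, 7.74 and 7.55 (2.12 ± 0.13). CG32055 (3.04 ± 0.24) and CG3568 (2.53 ± 0.27) were the next largest CG-named rises without overlap. Gr64a (2.10 ± 0.17) and Gr61a (1.98 ± 0.18), receptors of sugar taste neurons, rose as well, as did rpk, a sodium channel subunit (2.17 ± 0.20), timeout, a relative of the clock gene timeless (2.07 ± 0.22), and l(3)87Df (1.74 ± 0.12). Gr64a was dim in Canton S, at 4.52, 4.49 and 4.97, against 6.14 to 7.02 in mutant arrays. msl-3, a subunit of the male dosage compensation complex, rose by 1.59 ± 0.20, and its other probe set by 1.25 ± 0.30. The remaining members of the 12 largest named rises without overlap were retinin, which differed among the mutants (below, with its group values), and the replication genes Prim2 and Orc1.

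**Figure D2:**
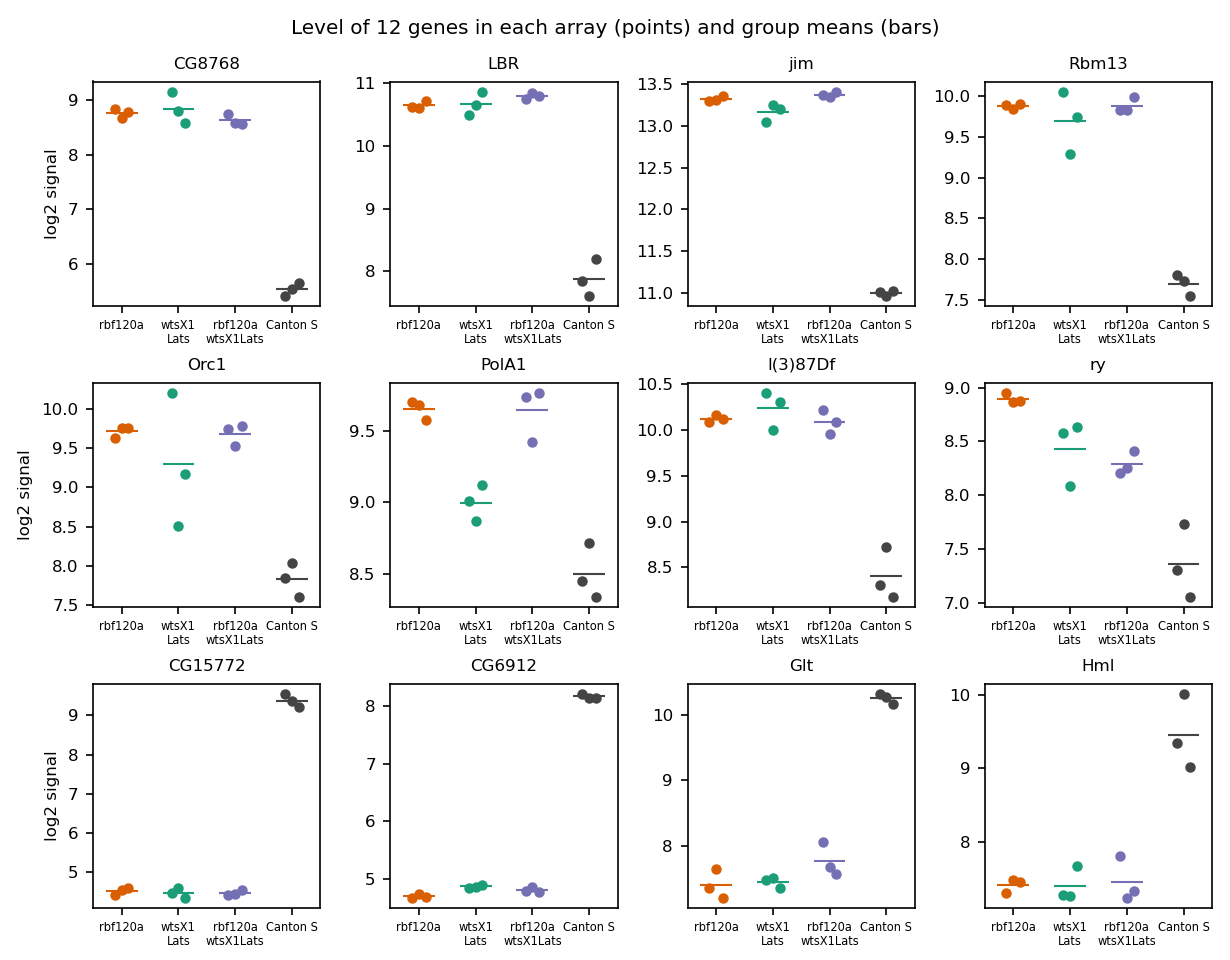
Log2 signal (vertical) of 12 genes in each array (points; bars are group means), with rbf120a, wtsX1Lats and rbf120a wtsX1Lats left of Canton S in each panel. The mutant arrays of CG8768, LBR, jim and Rbm13 lie above all Canton S arrays and those of CG15772, CG6912, Glt and Hml below them, while PolA1 in wtsX1Lats lies between Canton S and the other mutants.

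The 3 largest CG-named falls without overlap took genes from well above the array medians in Canton S to mutant medians near or below them. CG15772 (X chromosome) lay between 4.34 and 4.59 in the mutant arrays (median 4.47), against 9.56, 9.36 and 9.22 in Canton S, a change of -4.90 ± 0.09 (SE; adjusted p = 5.14e-12), the largest called change among the 11982 genes, each read at its brightest probe set. In a fit over all probe sets, the largest called fall among those of a single gene was -4.94, at another probe set. The brightest probe set of that gene was not called with a change of at least 1, so the 2 disagree. CG6912 (arm 3R) lay between 4.68 and 4.90 (median 4.79), against 8.21, 8.14 and 8.14 (-3.37 ± 0.06, adjusted p = 5.14e-12). CG31522 (arm 3R) lay between 5.29 and 6.78 (median 5.96), against 9.90, 10.35 and 9.57 (-3.98 ± 0.25). No array of either side came near the other in these 3 genes, and the mutant values are below the median of all probe sets for CG15772 and CG6912 (array medians of 5.76 to 5.86). Of the 126 large falls, 34 had a mutant mean under 6, and of the 86 large rises, 20 had a Canton S mean under 6.

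The largest falls without overlap among genes with names of their own follow. Mec2, a stomatin relative, changed by -2.96 ± 0.35 (SE), the cuticle protein gene Cpr47Eb by -2.92 ± 0.26, fat-spondin by -2.80 ± 0.27 and the serpin gene Spn47C by -2.80 ± 0.50. Cpr47Eb lay between 8.93 and 10.03 in mutant arrays (median 9.31), against 12.67, 12.89 and 11.38 in Canton S. stv, which encodes the BAG-domain co-chaperone Starvin, lay between 6.84 and 7.70 (median 7.41), against 9.67, 10.15 and 9.57 (-2.42 ± 0.18, adjusted p = 9.37e-06). Both are separated by more than 1 log2 unit in every pair of arrays. Gal, a beta-galactosidase (-2.34 ± 0.28), and t, the hydrolase Tan (-1.97 ± 0.31), fell too, and the other 5 of the 12 largest named falls, Glt, eater, Hml, Sr-CI and NimB4, are described with the blood cell genes. Every one of the 12 named rises, the 12 named falls and the 6 CG-named genes was called after each removal of 1 array.

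DNA replication genes were higher in mutant discs. Of 37 measured members of the list of E2F and DNA replication genes, 29 rose and 0 fell, beside 3.08% and 3.66% of all genes. At an unadjusted p under 0.05 (limma) 35 rose and 0 fell, beside 1069 and 1109 of all 11982 genes. The list's median change was 0.93, against 0.01 over all genes. In 27 of the 29 the 9 mutant arrays all lay above Canton S, as in 272 of the 369 genes called higher. By group, against the same 3 Canton S arrays, the median was 1.04 for rbf120a, 0.67 for wtsX1Lats and 1.10 for the double mutant. Removing Canton S replicate 1 left 14 calls, and so did removing replicate 3.

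All 6 measured polymerase and primase genes rose, by 0.93 to 1.77. Prim2, the large primase subunit, lay between 8.68 and 10.10 in mutant arrays (median 9.43), against 7.68, 7.84 and 7.34 in Canton S (1.77 ± 0.24 SE, adjusted p = 0.000819). PolA1, the catalytic subunit of polymerase alpha, lay between 8.87 and 9.76 (median 9.57), against 8.45, 8.72 and 8.34 (0.93 ± 0.11, adjusted p = 0.000326). Of 6 genes of origin recognition and licensing 5 rose, by 0.82 to 1.74, with Orc1, the largest subunit of the origin recognition complex, between 8.51 and 10.21 in mutant arrays (median 9.74) and at 7.84, 8.04 and 7.61 in Canton S. The lowest Orc1 and PolA1 values among mutant arrays were both in wtsX1Lats, and they still lay above Canton S. Of 8 replicative helicase genes 7 rose, by 0.79 to 1.30. Both genes of nucleotide supply rose, RnrL, a ribonucleotide reductase subunit, by 1.04 ± 0.14 and Ts, thymidylate synthase, by 1.10 ± 0.27. Of 4 chromatin assembly genes 3 rose, among them Caf1-180 (1.00 ± 0.10), and of 3 single-strand binding genes 2 rose. The clamp, clamp loader and ligation genes moved least: 4 of 7 rose, by 0.48 to 1.04, and the loader genes RfC3, RfC4 and RfC38, named after their values were seen, were at 0.08, 0.30 and 0.46 (adjusted p = 0.834, 0.269 and 0.13). The cyclin gene CycE was at 0.69 ± 0.19 (adjusted p = 0.0534).

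Mitosis genes were higher by less. Of 29 members 12 rose and 0 fell, beside 3.08% and 3.66% of all genes, and the median was 0.37. Unadjusted, 21 rose and 0 fell (limma). All 12 rises were without overlap, as were 272 of the 369 genes called higher. aurB, the Aurora B kinase, lay between 10.17 and 10.94 in mutant arrays (median 10.32), against 9.54, 9.60 and 9.44 in Canton S (0.86 ± 0.14 SE, adjusted p = 0.00297). Its partners in the chromosomal passenger complex, borr (0.60 ± 0.10) and Incenp (0.56 ± 0.11), rose, as did the mitotic cyclin gene CycB3 (0.48 ± 0.09) and the kinesin gene ncd (0.61 ± 0.11). The call for Incenp ended without Canton S replicate 3 (adjusted p = 0.0564). Removing Canton S replicate 1 or 3 left 5 calls in the list, and removing the double mutant's replicate 3 left 7. Among 21 genes of DNA repair and its checkpoints 4 rose and 0 fell, beside 3.08% and 3.66% of all genes, with a median of 0.18. Unadjusted, 8 rose and 0 fell. The 4 called genes were Msh6, a mismatch repair gene (0.83 ± 0.16), mus101 (0.82 ± 0.19), the checkpoint kinase gene lok (0.61 ± 0.14) and Fancd2 (0.43 ± 0.11). None of these was called once Canton S replicate 1 was removed (adjusted p = 0.0657 for Msh6), 1 was once replicate 3 was removed, and removing wtsX1Lats replicate 1 gave 8 calls. The call for Fancd2 also ended on removal of rbf120a replicate 2 or 3, the double mutant's replicate 1 or 3, or wtsX1Lats replicate 2 (adjusted p = 0.051 to 0.0655, limma).

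**Figure D3:**
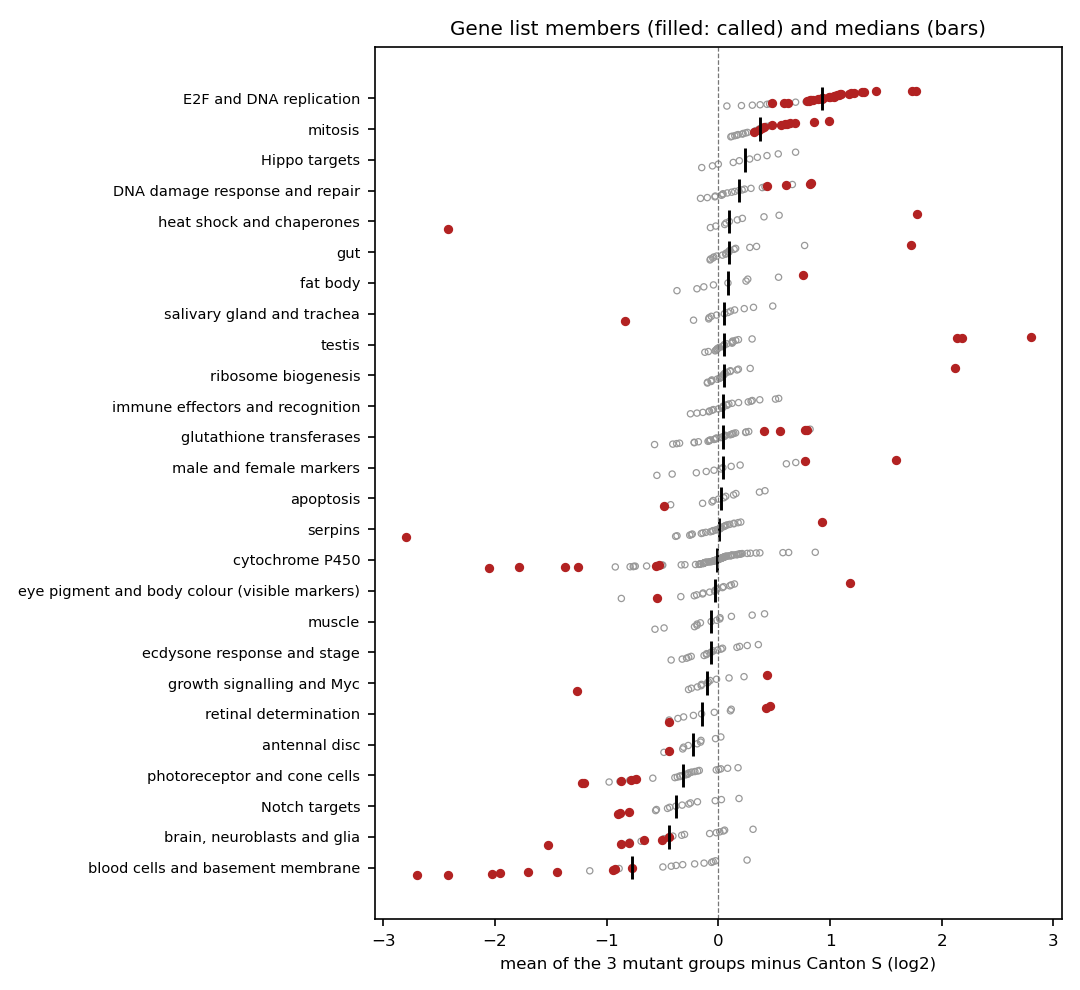
Members of each gene list (circles; filled red where called) by the mean of the 3 mutant groups minus Canton S (log2), with the list's median as a bar and lists ordered by it. E2F and DNA replication (median 0.93) stands at the top and blood cells and basement membrane (-0.77) at the bottom, while lists such as testis and cytochrome P450 have medians near 0 with a few distant members.

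Blood cell and basement membrane genes were lower in part, with 9 falls and 0 rises among 21 members, beside 3.66% and 3.08% of all genes. Unadjusted, 14 fell and 0 rose (limma), and the median was -0.77. Hml, hemolectin, lay between 7.24 and 7.81 in mutant arrays (median 7.33), against 9.34, 10.02 and 9.02 in Canton S (-2.03 ± 0.19 SE, adjusted p = 7.48e-05). eater, a phagocytosis receptor of blood cells, lay between 5.60 and 6.97 (median 6.13), against 8.56, 8.98 and 8.13 (-2.42 ± 0.24). Glt, a basement membrane glycoprotein, lay between 7.22 and 8.07 (median 7.52), against 10.32, 10.27 and 10.16 (-2.70 ± 0.12, adjusted p = 1.06e-07). For these genes no mutant array reached a Canton S array, and for Hml and eater Canton S replicate 2 was the highest of all arrays. The scavenger receptor gene Sr-CI (-1.96 ± 0.28), the matricellular protein gene SPARC (-0.93 ± 0.11) and, outside the list, the Nimrod family gene NimB4 (-1.83 ± 0.23) also fell. Basement membrane genes did not all move: vkg (-0.77) and Col4a1 (-0.94) were called lower. LanA (-0.21), LanB1 (-0.13), LanB2 (-0.05) and Ppn (-0.02) were not called (adjusted p = 0.498 to 0.959, limma). The blood cell marker NimC1 was at 0.26 ± 0.13 (adjusted p = 0.333, limma). Over the 7 blood cell markers, of which 4 fell, the mean level per array was 6.87 to 8.05 in mutant arrays and 7.92 to 9.03 in Canton S. In whole discs fewer blood cells attached to the tissue and less RNA per cell cannot be told apart.

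Differentiation genes of the retina were lower in part. Of 29 photoreceptor and cone cell genes 5 fell and 0 rose, beside 3.66% and 3.08% of all genes. Unadjusted, 15 fell and 0 rose (limma). The median was -0.32, with -0.16 for rbf120a, -0.47 for wtsX1Lats and -0.41 for the double mutant against the shared Canton S arrays. sev, the receptor tyrosine kinase that specifies R7, lay between 7.14 and 8.40 in mutant arrays (median 7.72), against 9.18, 8.61 and 9.22 in Canton S (-1.23 ± 0.16 SE, adjusted p = 0.00059). The other falls were gl, a zinc finger gene needed for photoreceptors (-1.20 ± 0.21), sens, a marker of the founder cell R8 (-0.78 ± 0.16), and the homeobox genes ro (-0.73 ± 0.15) and pros (-0.87 ± 0.24). The calls for ro ended without Canton S replicate 1 or 2 (adjusted p = 0.0671 in both), and that for pros after 9 of the 12 removals, at up to 0.156 without Canton S replicate 1. Removing Canton S replicate 2 left 3 calls in the list, while removing wtsX1Lats replicate 1 gave 8 and removing its replicate 3 gave 13. Of the 5 falls 3 had no overlap, beside 292 of the 438 genes called lower. All 5 were smallest in rbf120a, at -0.65 to -0.21, against -1.60 to -1.08 in wtsX1Lats and -1.55 to -0.91 in the double mutant. The list had 9 calls without the rbf120a group and 2 without the wtsX1Lats group.

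Among retinal determination genes, Optix (0.47 ± 0.09 SE) and ey (0.43 ± 0.11) were called higher and dan (-0.45 ± 0.10) lower, of 11 measured. These stand beside 3.08% of all genes called higher and 3.66% called lower, and the list median was -0.15. The pooled values of Optix and ey average unlike groups: Optix was at 0.04 for rbf120a, 0.60 for wtsX1Lats and 0.76 for the double mutant, and ey at 0.05, 0.32 and 0.91. The calls for ey and dan each ended when Canton S replicate 1 was removed (adjusted p = 0.0863 and 0.0996) or replicate 3 (0.11 and 0.072) and, for ey, also on removal of Canton S replicate 2 (0.122) and the double mutant's replicates 2 (0.0531) and 3 (0.0664). Of 15 Notch targets 3 fell and 0 rose, beside 3.66% and 3.08% of all genes: E(spl)mdelta-HLH (-0.90 ± 0.20), E(spl)m4-BFM (-0.88 ± 0.23) and dpn (-0.80 ± 0.18). Unadjusted, 8 fell and 0 rose (limma). The median of the Notch targets was -0.38, with -0.18 for rbf120a, -0.43 for wtsX1Lats and -0.57 for the double mutant. Only 1 of the 3 fell without overlap, beside 292 of the 438 genes called lower. None of the 3 was called without Canton S replicate 1 or 2, 1 was without replicate 3, and the list's count was 9 without wtsX1Lats replicate 3. The call for E(spl)m4-BFM also ended on removal of any rbf120a or double mutant array or of wtsX1Lats replicate 2 (adjusted p = 0.0516 to 0.0703, limma). Of 19 brain, neuroblast and glia genes 6 fell and 0 rose, beside 3.66% and 3.08% of all genes (median -0.44). Unadjusted, 12 fell and 1 rose. Among the falls were the neuroblast gene ase (-0.66 ± 0.12, Canton S mean only 5.84) and Appl, the fly amyloid precursor relative (-1.53 ± 0.27). Those of dpn and pros are the calls already counted among Notch targets and photoreceptor genes. The glial genes repo, loco, moody and Gli were not called (adjusted p = 0.0628, 0.0555, 0.116 and 0.638, limma). The list's median was -0.13 for rbf120a, -0.57 for wtsX1Lats and -0.58 for the double mutant against the shared Canton S arrays, and 12 genes were called without the rbf120a group and 2 without the wtsX1Lats group. The count was 3 after removal of any 1 Canton S array, of rbf120a replicates 1 or 2 or of the double mutant's replicates 1 or 3, and 11 after removal of wtsX1Lats replicate 1 or 3. Over 7 glia and neuroblast markers, of which 2 fell (the neuroblast genes ase and dpn), the mean level was 7.65 to 8.22 in mutant arrays and 8.21 to 8.40 in Canton S.

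Further lists covered detoxification families and visible markers. Of 84 cytochrome P450 genes, enzymes of detoxification and hormone synthesis, 6 fell and 0 rose, beside 3.66% and 3.08% of all genes, with a median of -0.01. At an unadjusted p under 0.05 (limma) 18 fell and 8 rose, beside 1109 and 1069 of all 11982 genes. Cyp6a13 lay between 5.08 and 5.76 in mutant arrays (median 5.52), against 6.68, 7.19 and 6.15 in Canton S (-1.26 ± 0.17 SE, adjusted p = 0.000917), and Cyp4d2 between 5.34 and 5.93 (median 5.45), against 7.44, 8.29 and 6.35 (-1.79 ± 0.30). Both were separated, with Canton S replicate 3 the nearest to the mutants. Cyp6g2 fell too (-1.37 ± 0.23), while the calls for Cyp12a4 (-0.56 ± 0.11) and Cyp6d4 (-0.53 ± 0.11) ended without Canton S replicate 3 (adjusted p = 0.0623) and replicate 1 (0.112). Removing Canton S replicate 3 gave 13 calls. Of 34 glutathione transferase genes 4 rose and 0 fell (5 and 3 unadjusted; median 0.04). GstT1 reached 11.59 in mutant arrays, with a median of 11.16 and no overlap, against 10.48, 10.45 and 10.32 in Canton S (0.79 ± 0.11, adjusted p = 0.000939). The other calls, GstS1 (0.41 ± 0.08), GstE5 (0.78 ± 0.20) and GstE3 (0.55 ± 0.15), ended without Canton S replicate 1 (adjusted p = 0.0534, 0.0781 and 0.14), and the count was 1 there. It was 2 without Canton S replicates 2 or 3, rbf120a replicate 3 or the double mutant's replicates 1 or 3, where GstE5 and GstE3 again lost their calls. The call for GstE5 also ended without rbf120a replicate 1 or wtsX1Lats replicate 2, and that for GstE3 without rbf120a replicate 2.

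Among 18 genes of eye pigment, body colour and other visible markers 1 rose and 1 fell, beside 3.08% and 3.66% of all genes, with a median of -0.03. The riser was ry, rosy, which encodes xanthine dehydrogenase and is carried as a marker on many fly transgenes. It lay between 8.08 and 8.95 in mutant arrays (median 8.58), against 7.30, 7.73 and 7.06 in Canton S (1.18 ± 0.15 SE, adjusted p = 0.000541), and its group changes were 1.53 for rbf120a, 1.07 for wtsX1Lats and 0.93 for the double mutant. The gene next to it among the tested genes of arm 3R is l(3)87Df, which lay between 9.95 and 10.40 in mutant arrays (median 10.11), against 8.31, 8.72 and 8.18 in Canton S. The labels do not list transgenes, and the part of any transgene in these values was not tested. The gene that fell was st, scarlet, a pigment transporter subunit, which was dim on both sides, at 5.13 to 5.31 in mutant arrays and 5.72, 5.80 and 5.87 in Canton S (-0.55 ± 0.07, adjusted p = 0.000306).

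The remaining lists held at most 3 calls each way, to be read beside the 3.08% of all genes called higher and 3.66% called lower; a single call in such a list is near that background and describes the gene, not the list. The serpins had 1 rise and 1 fall among 28, Spn42De (0.93 ± 0.17 SE) and Spn47C, and heat shock and chaperone genes 1 of each among 11, stv and Hsp68 (1.78 ± 0.47, not called in 8 of the 12 removals, with adjusted p up to 0.158 without Canton S replicate 2). Of 13 male and female markers msl-3 and mof (0.78 ± 0.18) rose, both of them parts of the dosage compensation machinery. The call for mof ended without Canton S replicate 1 (adjusted p = 0.0996) or 3 (0.0889). Of 13 growth signalling genes gig, the fly Tsc2 (0.44 ± 0.08), rose and slif, an amino acid transporter gene (-1.27 ± 0.23), fell, although gig missed the threshold once Canton S replicate 1 was removed (adjusted p = 0.0604). The list of 21 ribosome biogenesis genes had Rbm13 as its 1 rise and a median of 0.05, that of 12 apoptosis genes had Dredd as its 1 fall (-0.49 ± 0.13, not called in 10 of 12 removals, with adjusted p up to 0.158), that of 10 antennal disc genes had dan, and that of 13 salivary gland and trachea genes had fkh (-0.83 ± 0.17, and adjusted p = 0.0677 once Canton S replicate 2 was removed). There was 1 rise among 17 gut genes (Mal-A1), 1 among 9 fat body genes (fit) and 3 among 23 testis genes (Tektin-C, tut and Hsc70-2), each of which differed among the mutant groups. No gene was called by limma among 10 Hippo targets (median 0.23; 4 higher and 0 lower unadjusted), 23 immune genes (2 and 1 unadjusted), 18 ecdysone response genes (0 and 0) and 13 muscle genes (0 and 1). For the Hippo targets the pooled test averages groups with and without the wts allele. Their median was 0.09 for rbf120a, 0.29 for wtsX1Lats and 0.34 for the double mutant against the shared Canton S arrays.

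The 3 mutant groups were then compared with each other in the same fit, without the Canton S mean, to ask how far a pooled change is shared. Over all genes, 103 differed among the mutants (0.86%, limma's F test), and of the 212 large pooled changes 16 did (7.55%), a higher share. The count of 103 rests on single arrays: it was 22 to 27 after removal of any rbf120a array, 32 to 58 after removal of any double mutant array, 53 after removal of Canton S replicate 1, 204 after removal of wtsX1Lats replicate 1 and 331 after removal of its replicate 3. It was 46 when the replicate number was added to the fit as a block. In 114 of the 212 the highest and lowest mutant group mean were less than 0.5 apart, and the median of that distance was 0.46, beside 0.17 over all genes. A test that misses its threshold does not show that the groups are equal. Among named genes with a large change and no overlap the closest were Ance-5, of the angiotensin-converting enzyme family, with changes of -1.51 for rbf120a, -1.49 for wtsX1Lats and -1.49 for the double mutant, Hml, whose group means spanned 0.05, and kel, which encodes the ring canal protein Kelch (-1.08, -1.04 and -1.09). Gal, NimB4 and hd complete the 6 closest, hd, the replication gene humpty dumpty, with 1.08, 0.93 and 1.05, although its call ended after 8 removals (adjusted p up to 0.162 without Canton S replicate 3).

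The widest apart by the same conditions were retinin, Hrb87F, Appl, krimp, Spn47C and sff. Hrb87F, an hnRNP gene, was at -2.28 for rbf120a, -0.60 for wtsX1Lats and -0.24 for the double mutant, with Canton S at 12.55, 12.54 and 12.55. retinin, a corneal lens protein, was at 0.72, 2.75 and 3.24, and the piRNA gene krimp at 2.22, 0.57 and 0.60. A pooled value of such genes is an average of unlike groups. The differences among the mutants in Spn47C (-2.78, -2.16 and -3.45; adjusted p = 0.566) and sff (-0.48, -1.46 and -1.74; adjusted p = 0.202) did not pass the F test, and the pooled call for sff ended on removal of any Canton S array (adjusted p = 0.0525 to 0.093).

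**Figure D4:**
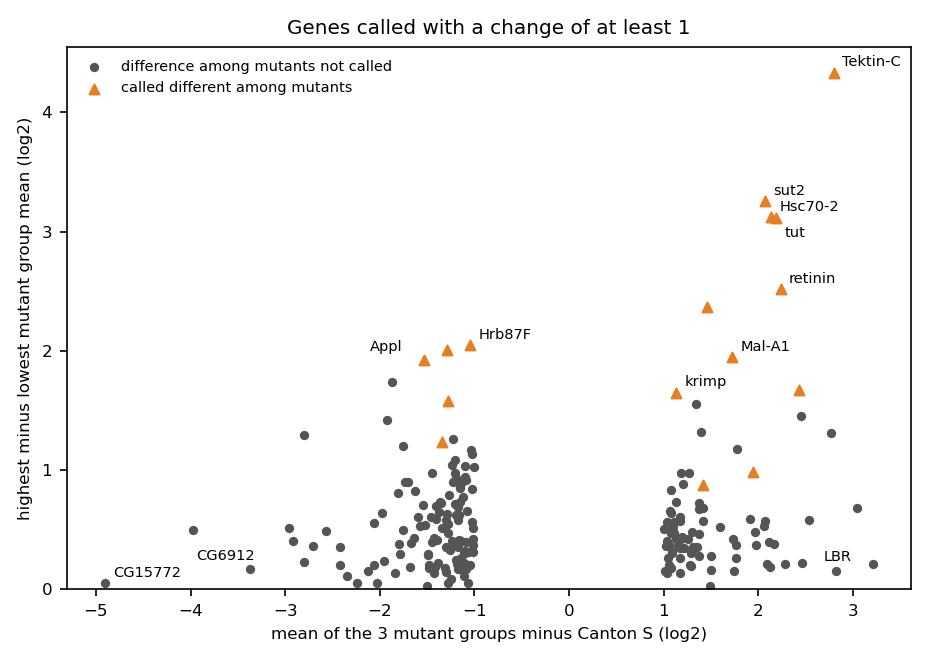
The 212 genes called with a change of at least 1, by the pooled change (log2, horizontal) and by the distance between the highest and lowest mutant group mean (log2, vertical); triangles are the 16 genes that differed among the mutants. CG15772 and LBR lie near 0 on the vertical axis, and Tektin-C is the highest at 4.33.

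Other probe sets of the same gene were examined, since a change at 1 probe set only is a limit of the gene's value. Of the 212 genes 14 had another probe set, and 7 had one with a mean of at least 6. Of these 8 brighter probe sets, 5 moved the same way by at least 0.5 of the change and 3 did not. Among these, jim is the clearest case: against 2.28 at its representative probe set, its others changed by 0.21 ± 0.19 (SE) and 0.08 ± 0.19, although they were bright, with Canton S means of 11.48 and 9.98. Genes that moved at a dimmer probe set only, as with the fall of -4.94 above, were not examined in this way. The remaining 1 of the 3 disagreeing probe sets was that of CG7768 (-0.36 ± 0.15, against -1.11). For CG31522, which changed by -3.98 at its representative, the other probe sets were dim, with means of 5.57 and 4.36, and changed by 0.23 and 0.01. Genes with a second bright probe set that moved along were msl-3, CG5326, CG6329, gkt and regucalcin, all named, like CG7768, after their values were seen. Whether sequence variants under the probes have a part in any of these values was not tested.

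Called genes were spread over the chromosome arms. By arm, 102 of 1873 genes were called on X (5.45%), 160 of 2205 on 2L (7.26%), 169 of 2427 on 2R (6.96%), 180 of 2344 on 3L (7.68%), 183 of 2974 on 3R (6.15%) and 8 of 65 on the small chromosome 4 (12.3%). Large changes made up 1.49% to 2.18% of the genes of every arm, with the highest share on 3L. X, which carries Rbf, and 3R, which carries wts, thus had the lowest shares called, although arms were not tested against each other. Genes called the same way were also counted by position, without a test: of the tested neighbours of genes called higher, 5.42% were also called higher, against 3.10% of all placed genes, and of the neighbours of genes called lower 6.70% were called lower, against 3.64%. With a size of at least 1 the shares were 3.49% for rises, against 0.723% of all placed genes, and 0.806% for falls, against 1.04%. These made up 4 neighbouring pairs: cutlet and CG31955 on 2L, CG11594 and Gr64a on 3L, and l(3)87Df and ry on 3R, all higher, and CAH2 and Miox on 3L, lower. The pairs were listed after their values were seen. CG11594 rose by 2.46, about as much as Gr64a (2.10).

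**Figure D5:**
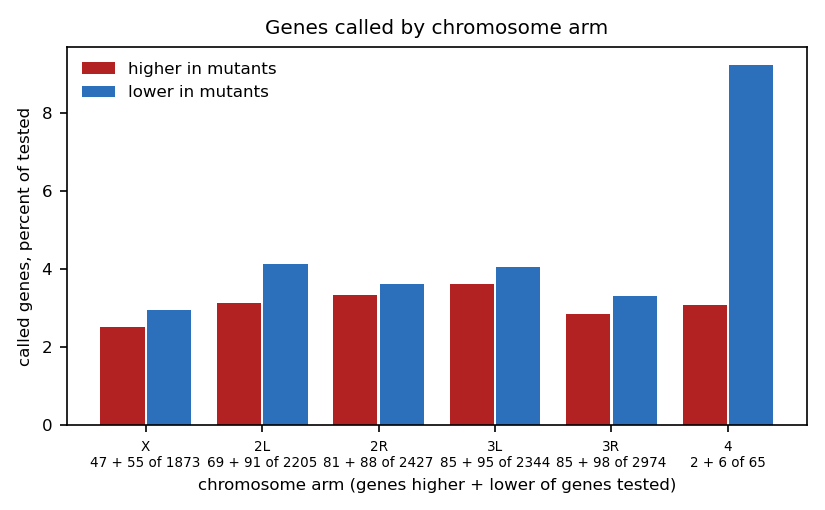
Share of tested genes called higher (red) and lower (blue) in mutant discs on each chromosome arm (bars, percent), with the counts under each arm. The 5 large arms had between 47 and 85 genes higher and between 55 and 98 lower, and chromosome 4 had 2 higher and 6 lower of 65.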

How the data were processed

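The authors deposited 1 table of log2 values for 18952 probe sets on 12 arrays. Their log2 scale is inferred from their range (3.55 to 14.53). Summary and normalization methods are not given in the sources used here, and no detection calls were used. The number of arrays also limits the precision. Per the labels' protocols, biotinylated cRNA came from Trizol-extracted total RNA. Probe sets with 1 gene in the platform annotation (13647) were updated to current symbols through a RefSeq gene table (Release 6 plus ISO1 MT; 13544 matched), which was used for names, arms and gene order only. Each gene kept its probe set with the highest mean.

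The test was that of limma 3.58.1 under R 4.3.3 (lmFit, then eBayes with a variance trend, 4 group means, 8 residual degrees of freedom), Benjamini-Hochberg adjusted over 11982 genes, after a check on simulated data, with these unequal spreads between groups, in which false calls exceeded the nominal share: calls are less certain than their adjusted p. Adjusted p values named in the text are from this test. P-values measure the spread between arrays called biological replicates.

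The comparison, the 26 gene lists (566 of 692 written names measured) and the naming rule were chosen with earlier results of these data known. The rule took Rbf and wts, the 12 largest named and 3 largest CG-named changes each way without overlap, up to 5 called members per list, the 6 most and 6 least alike among mutants, and the 8 smallest F-test p. A search of promoters was planned and not run, since no promoter sequences were used here. The gene w was not analysed here.

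Alternatives were a replicate block, no variance trend, array weights, renormalization, a level filter, the mean of probe sets, 2 pooled groups, and removals of arrays or groups.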

Additional observations from a re-analysis of the deposited data

Results flagged for a closer look

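Named genes whose 3 mutant groups differed from each other by limma's F test are listed with its adjusted p. A change followed wtsX1Lats and the double mutant, with rbf120a near Canton S, in Tektin-C (-0.01 for rbf120a, 4.07 for wtsX1Lats and 4.33 for the double mutant, adjusted p = 8.96e-09), Hsc70-2 (0.07, 3.16 and 3.19, adjusted p = 1.61e-05), sut2 (-0.05, 3.21 and 3.05, adjusted p = 0.000152), tut (0.22, 3.02 and 3.33, adjusted p = 0.000308) and fit (0.03, 1.19 and 1.05, adjusted p = 0.0162). dpr16 was at -0.30, 1.53 and 1.63 (adjusted p = 0.000443). retinin (adjusted p = 0.0469), Optix (adjusted p = 0.0185) and ey (adjusted p = 0.0219) were larger where the wts allele was present. Tektin-C lay at 5.19, 4.92 and 5.18 in Canton S and reached 9.58 in the mutant arrays, so that its pooled change of 2.80 holds in no single group.

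A change was largest in rbf120a in krimp (2.22, 0.57 and 0.60, adjusted p = 0.000443), Hrb87F (-2.28, -0.60 and -0.24, adjusted p = 0.000443), Mal-A1 (2.98, 1.03 and 1.17, adjusted p = 0.0423) and esn (-0.82, 0.27 and 0.28, adjusted p = 0.000443), the last without a pooled change (-0.09 ± 0.09 SE, adjusted p = 0.701). Appl was lowest in wtsX1Lats (-0.58, -2.50 and -1.51, adjusted p = 0.0425).

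Outside the gene table, 161 of 5122 probe sets without a single gene name were called in a fit over all probe sets (3.14%, limma), 83 higher and 78 lower, with changes between -4.38 and 5.04; 122 of them had no overlap between the 9 mutant and the 3 Canton S arrays. The share was 6.18% in the same fit among probe sets of a single gene.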

How the results depend on the processing

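Removing 1 array at a time gave 392 to 1281 called genes (162 to 609 higher and 230 to 672 lower), 170 to 239 with a change of at least 1, and 22 to 331 that differed among the mutants. With array weights, which were estimated gene by gene, 2605 genes were called (1256 higher and 1349 lower) and 799 differed among the mutants. Without wtsX1Lats replicates 1 and 3 together the counts were 1247 (614 higher) and 211. A size of 0.5 was passed by 613 called genes. With a replicate block 46 genes differed among the mutants and 803 were called against Canton S. The replicate numbers did not pair the arrays across all groups: of 18 same-numbered pairs 6 had deviations correlated above 0.1 (range -0.30 to 0.31), among them all 3 pairs of wtsX1Lats with rbf120a, and 3 of 12 arrays were closest to an array of their own number. A fit of 9 arrays against 3 called 607 genes. The other settings left these counts within 1.5 times, as did a mean level of at least 6 for the arm shares, the one alternative run for them, and with a looser size for agreement 2 rather than 3 brighter probe sets disagreed. No named gene that was called reversed under any of the 23 settings, and 26 of the 90 called named genes lost the call in at least 1 removal. Of all 807 called genes 341 were called after every removal. Of the 93 named genes, 28 were graded weaker in the fit of 9 arrays against 3, and 65 the same. That grade also went to 14 without the wtsX1Lats group and to 14 without the double mutant group. In the fit of 9 against 3, lower calls numbered 2 for photoreceptor genes, 2 for brain genes and 0 for Notch targets, against 5, 6 and 3. E2F and DNA replication had 31 higher calls there, and cytochrome P450 had 7 lower. The cause of these shifts was not tested.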
